A study of Mus musculus with 2 samples.

Results

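Foxp3-positive cells without the Dscam program were selected on 4 measured values of each cell. A member had 1 or more UMI (a captured molecule counted once) of Foxp3 (chrX:7573644-7595245, + strand, mm10 coordinates from GENCODE M21), 1 or more of Cd3d, Cd3e and Cd3g together, none of Cd8a and Cd8b1, and at most 2 of Dscam, Penk and Hapln1 together. A Cd4 UMI was not required. The rule found 311 cells among 13772 cells of the series that had at least 500 genes with a UMI and no more than 10% of UMIs from mitochondrial genes. Of these, 136 came from the WT mouse and 175 from the DKO-severe mouse.

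Regulatory T (Treg) cells restrain other T cells, and the transcription factor FOXP3 holds their identity. They take up IL-2 through a high-affinity receptor whose alpha chain is Il2ra, which signals through STAT5 and helps keep Foxp3 on. TET2 and TET3 oxidise methylated cytosine, and demethylation of an intronic element of Foxp3 is part of what keeps the gene expressed when Treg cells divide. Dscam, Penk and Hapln1, which encode a neuronal adhesion protein, an opioid peptide precursor and a matrix link protein, are not part of the usual Treg repertoire.

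The cells were TCRβ+ cells sorted from spleen joined with cervical and inguinal lymph nodes of mice aged 14 weeks. One genotype was Foxp3Cre WT and the other Foxp3Cre Tet2/3 flox/flox with severe disease (DKO-severe). Both carried a YFP-Cre fusion under control of the Foxp3 locus, which directs deletion to cells that express Foxp3. This Cre is known to be leaky, so other cells can also have lost Tet2 and Tet3, and Foxp3-negative DKO-severe cells can include descendants of Foxp3-positive ones. Each genotype was 1 mouse, and both went through 1 mRNA library with a hashtag antibody per genotype, so no difference below has a replicate check and no p-value is given.

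The intervals given are 95% intervals that cover counting error only. A median of 9555 UMIs was counted per DKO-severe member (2373 to 34532) and of 4862 per WT member (1623 to 38850). Shares of cells with a UMI were therefore also taken after drawing each cell down to 3800 UMIs and gating again, with shallower cells left out (28 WT and 7 DKO-severe members). No barcode was in both matrices, and no member had more counts of the other genotype's hashtag than of its own. Xist, expressed from the inactive X chromosome, had no UMI in members of either genotype. Tet2 was at 49.8 CPM (UMIs of the gene per 1000000 UMIs of the group) in WT and 67.5 in DKO-severe members, and Tet3 at 110 and 90.6 CPM. A library of 3′ ends does not check the deletion of internal exons.

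Members made up similar shares of Cd3+ Cd8- cells in both mice under the rule. They were 136 of 3256 such cells in WT, or 4.18% (exact interval 3.52 to 4.92), and 175 of 4184 in DKO-severe, or 4.18% (3.60 to 4.83). At 3800 UMIs the shares were 2.91% (2.33 to 3.59) and 2.84% (2.35 to 3.39). What differed was the rest of the Foxp3-positive cells: members were 136 of 143 of them in WT (95.1%, 90.2 to 98.0) and 175 of 522 in DKO-severe (33.5%, 29.5 to 37.8).

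Foxp3 UMIs were also found in cells that should lack them. Among cells with Cd3 and Cd8 but no Cd4 UMI, at median depths of 6304 UMIs in WT and 9310 in DKO-severe, 0.982% (0.672 to 1.38) and 1.27% (0.810 to 1.91) had a Foxp3 UMI, and 0.982% and 0.610% also met the program limit. At 3800 UMIs, 0.410% and 0.714% had a Foxp3 UMI. The share of members lay above that background in both mice. Most members were called from a single Foxp3 UMI, 103 of 136 in WT and 113 of 175 in DKO-severe.

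The limit of 2 program UMIs ran through a continuous range in the DKO-severe mouse. Of its Foxp3-positive cells, 117 had a sum of 0, 33 had 1, 25 had 2, 21 had 3 and 19 had 4, and 242 had 11 or more. In WT, 124 had 0, 8 had 1, 4 had 2, 3 had 3 and 2 had 4. Depth moved cells across the limit: of the 117 DKO-severe cells that met the rule at 3800 UMIs, 32 were above the limit at full depth. Of these 117 cells 75 were members at full depth, and in WT 80 of 84 were. Values for members at 3800 UMIs thus come in part from other cells, more so in DKO-severe. At a sum of 0, members would be 3.81% (3.18 to 4.52) of Cd3+ Cd8- cells in WT and 2.80% (2.32 to 3.34) in DKO-severe, and with 2 or more Foxp3 UMIs 1.01% (0.699 to 1.42) and 1.48% (1.14 to 1.90).

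**Figure D1:**
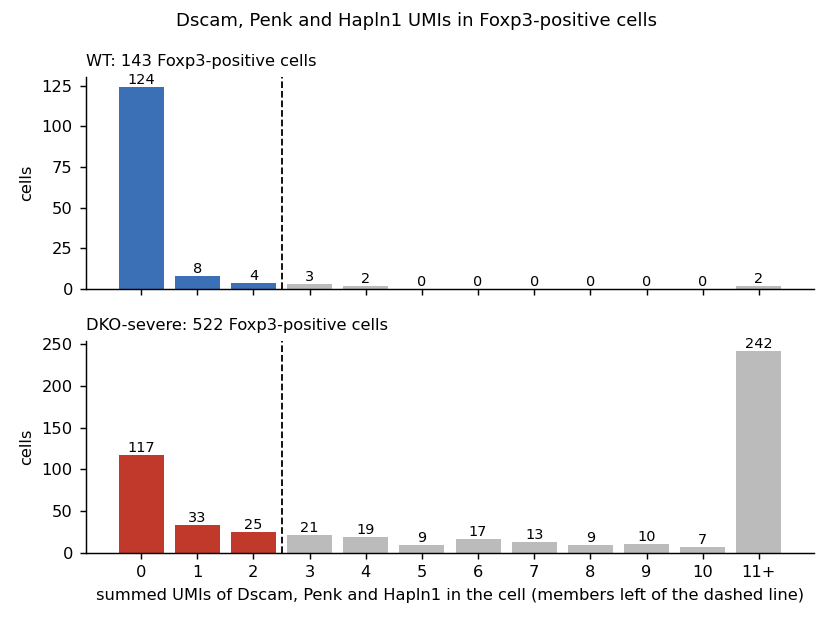
Number of Foxp3-positive Cd3+ Cd8- cells (vertical axis) by the summed UMIs of Dscam, Penk and Hapln1 in the cell (horizontal axis), WT above and DKO-severe below; coloured bars left of the dashed line are the members. In WT 124 of 143 cells have a sum of 0, and in DKO-severe 242 of 522 have 11 or more.

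Next, 4 markers of Treg cells that the rule did not use were checked. In WT members, UMIs of Il2ra, the IL-2 receptor alpha chain (chr2:11642807-11693193, + strand), were found in 93 of 136 cells. Ikzf4, which encodes the Ikaros family factor Eos (chr10:128630843-128645991, - strand), was found in 49, Lrrc32, which encodes the TGF-β docking protein GARP (chr7:98489283-98502181, + strand), in 30, and Gpr83, an orphan receptor of Treg cells (chr9:14860210-14870789, + strand), in 24. In the 175 DKO-severe members the numbers were 85, 43, 19 and 14 at the higher depth per cell.

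Counted per cell, 63 of 136 WT members had 2 or more of these 4 markers (46.3%, 37.7 to 55.1) and 25 had none (18.4%, 12.3 to 25.9). In DKO-severe, 39 of 175 members had 2 or more (22.3%, 16.4 to 29.2) and 71 had none (40.6%, 33.2 to 48.2). At 3800 UMIs the cells with none were 32.1% (22.4 to 43.2) of WT and 56.4% (46.9 to 65.6) of DKO-severe members. Of Foxp3-negative cells, 82.5% in WT and 80.1% in DKO-severe had none. Foxp3-negative means only that no Foxp3 UMI was counted in a cell with a program sum of at most 2. Cells above that limit without a Foxp3 UMI are not in this group. Of the Foxp3-negative cells, 131 of 3091 in WT (4.24%) and 79 of 2916 in DKO-severe (2.71%) had 2 or more of the markers. They can therefore include Treg cells whose Foxp3 was not captured, which was not tested. Members of both mice had these markers more often than Foxp3-negative cells, and the intervals for having none did not overlap between WT and DKO-severe members at either depth. The DKO-severe cells at 3800 UMIs included 32 above the program limit at full depth, so the depths do not compare the same cells. The intervals for 2 or more markers did not overlap at full depth but did at 3800 UMIs, where the shares were 29.8% (20.3 to 40.7) and 13.7% (8.02 to 21.3). Of the single markers, the intervals of Il2ra were apart (59.9 to 76.1% and 41.0 to 56.2%), while those of Lrrc32, Gpr83 and Ikzf4 overlapped. The count covers these 4 markers only. Among other Treg genes, Ikzf2 UMIs were in 80.9% of WT and 90.9% of DKO-severe members and Ctla4 UMIs in 72.8% and 86.9%. At 3800 UMIs the shares were 79.8% and 85.5% for Ikzf2 and 76.2% and 66.7% for Ctla4. In DKO-severe Foxp3-negative cells at full depth, 54.3% had Ikzf2 and 52.8% Ctla4.

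**Figure D2:**
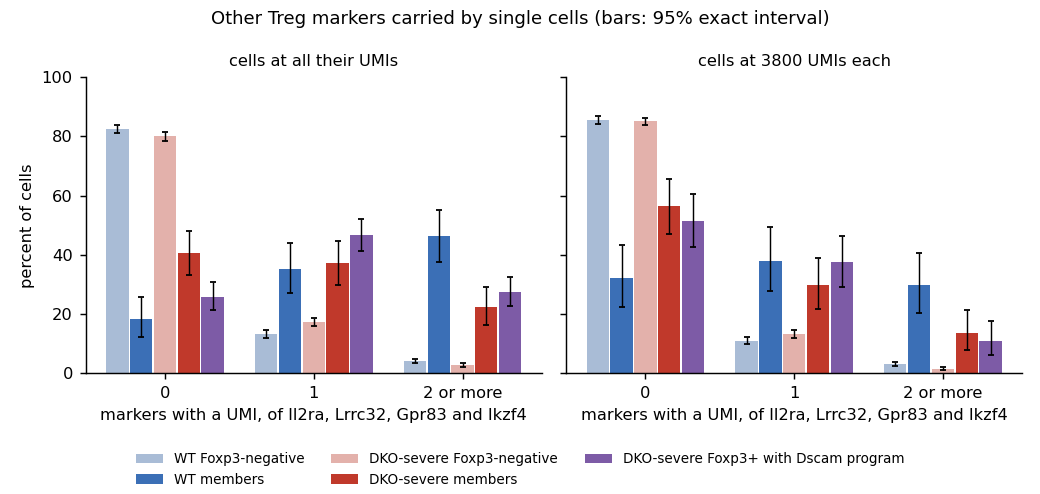
Percent of cells (vertical axis, with 95% exact intervals) that had UMIs of 0, 1, or 2 or more of Il2ra, Lrrc32, Gpr83 and Ikzf4 (horizontal axis) in 5 groups of cells, at full depth on the left and at 3800 UMIs per cell on the right. Members without any of the markers are 18.4% in WT and 40.6% in DKO-severe at full depth.

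Levels were then compared as CPM of UMIs summed over the cells of a group. A ratio was counted as changed at 2-fold or more, among genes with a mean of 20 CPM or more and 60 or more UMIs over both groups, and a count under 3 UMIs was taken as 3. In WT members against the 3091 WT Foxp3-negative cells with a program sum of at most 2, all 16 tested genes of the Treg identity list were 2-fold or more higher, where 3.07% of 6166 tested genes were higher and 1.07% lower. Their median log2 ratio was 2.28 beside 0.06 over all tested genes. The list includes Foxp3, which the rule used.

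Lrrc32 was at 58.5 CPM (counting interval 43.0 to 77.9) in WT members and 3.14 CPM in WT Foxp3-negative cells, a log2 ratio of 4.22 (3.62 to 4.82). Il2ra was at 507 and 39.0 CPM (log2 ratio 3.70, 3.52 to 3.88). Ikzf2, which encodes Helios, was at 1903 and 341 CPM (log2 ratio 2.48), and Ctla4, the inhibitory receptor that competes for CD80 and CD86, at 425 and 87.5 CPM (log2 ratio 2.28). All 4 genes separated members from Foxp3-negative cells with counting intervals of the ratio far from 0.

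Genes induced by IL-2 through STAT5 were also higher in WT members. Cish, a STAT5 target that feeds back on cytokine signalling, was at 84.7 CPM in WT members and 11.5 in WT Foxp3-negative cells (log2 ratio 2.88, 2.46 to 3.29), and 5 of 12 tested genes of the IL-2 and STAT5 list were 2-fold or more higher and none lower. Of the effector Treg list 6 of 15 were higher, among them Icos at 218 and 94.4 CPM. Outside the lists, Gata1, a factor best known from erythroid cells, was at 49.8 and 5.69 CPM (log2 ratio 3.13, 2.56 to 3.68) and was found in 23 of 136 members, while the haemoglobin gene Hbb-bs was at 7.47 CPM in WT members and 162 CPM in WT Foxp3-negative cells.

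Lower in WT members were 66 tested genes. Among the lowest were Auts2 (3.74 against 55.8 CPM), the LIM domain gene Pdlim4 (1.25 against 54.8 CPM) and the NK receptor gene Klrd1 (4.98 against 40.0 CPM). Of the resting and naive list 4 of 17 were lower, with Il7r, the IL-7 receptor alpha chain that Treg cells hold low, at 240 CPM in members and 530 CPM in Foxp3-negative cells.

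The same contrast inside the DKO-severe mouse gave fewer higher genes. Members were summed over 802823 UMIs in WT and 1910165 in DKO-severe, so the WT ratios carry more counting error. Its part in the numbers of genes past 2-fold was not tested. Against 2916 DKO-severe Foxp3-negative cells, also with a program sum of at most 2, 6405 genes were tested. Of these, 1.22% were 2-fold or more higher in members and 1.89% lower. Of the Treg identity list 6 of 12 tested genes were higher and none lower, with a median log2 ratio of 0.96 (0.84 without Foxp3) beside 0.05 over all tested genes. The higher ones were Foxp3, Il2ra (209 against 47.9 CPM, log2 ratio 2.12, 1.96 to 2.29), Ikzf4 (33.0 against 7.80 CPM), Ikzf2 (1844 against 513 CPM), Ctla4 (527 against 249 CPM) and Tnfrsf18 (302 against 143 CPM), which encodes the costimulatory receptor GITR.

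Several Treg genes did not separate the DKO-severe members from their Foxp3-negative cells. Nrp1, a semaphorin co-receptor of thymic Treg cells, was at 258 and 63.4 CPM in WT members and WT Foxp3-negative cells, and at 101 and 137 CPM in the DKO-severe ones (log2 ratio -0.44, and 0.07 in a second draw at 3800 UMIs). Izumo1r, the folate receptor 4 gene, was at 488 CPM in DKO-severe members and 421 CPM in DKO-severe Foxp3-negative cells. Cish was at 38.2 and 22.8 CPM and Socs1 at 36.1 and 49.1 CPM there, and of the 12 tested genes of the IL-2 and STAT5 list only Il2ra was 2-fold or more higher. The levels of Foxp3-negative cells were themselves higher in DKO-severe than in WT for Ctla4, Nrp1, Izumo1r and Cish.

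Over the 5763 genes tested in both mice, 163 were 2-fold or more higher in WT members and 33 in DKO-severe members than in the Foxp3-negative cells of the same mouse. These counts, too, rest on unlike UMI totals of the members. The 14 shared genes were 8.59% of the WT list and 42.4% of the DKO-severe list, and included Foxp3, Il2ra, Ikzf2, Ikzf4, Ctla4, Tnfrsf18, Tnfrsf9 and Tnfrsf1b. The 163 genes, chosen for being high in WT, had a median log2 ratio of 1.40 in WT and 0.33 in DKO-severe, and the 33 chosen in DKO-severe had one of 1.20 in DKO-severe and 0.95 in WT. Of lower genes there were 46 in WT and 40 in DKO-severe, and 20 were shared, 43.5% of the WT list and 20 of the 40 in DKO-severe.

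**Figure D3:**
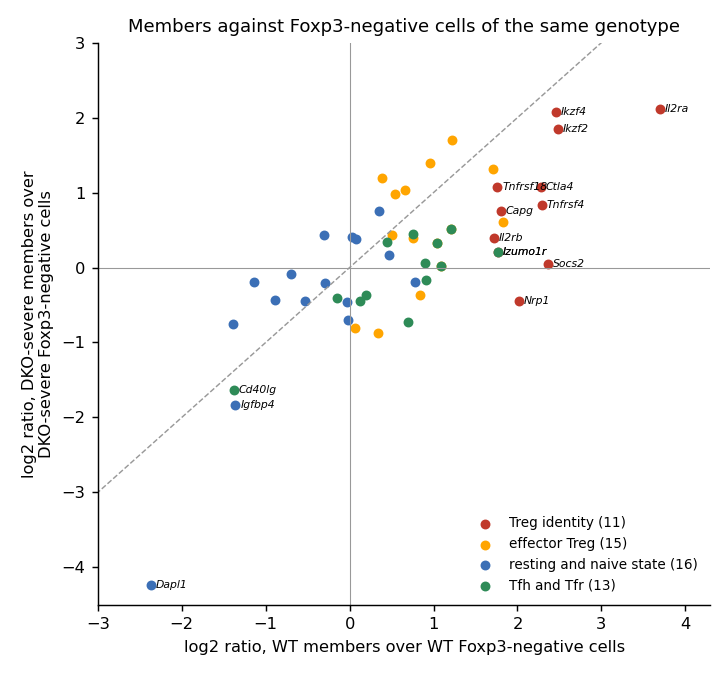
Log2 ratio of CPM of members over Foxp3-negative cells in WT (horizontal axis) and in DKO-severe (vertical axis) for genes of 4 lists that passed the filter in both, Foxp3 left out, with the line of equal ratios dashed; the number of genes is given in brackets. All 11 Treg identity genes lie below the line, with Il2ra at 3.70 and 2.12 and Nrp1 at 2.02 and -0.44.

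Leading the DKO-severe members against their Foxp3-negative cells, after Foxp3, was Cep112, which encodes a centrosomal protein, at 71.2 and 5.56 CPM (log2 ratio 3.68, 3.32 to 4.03). Next were the eotaxin receptor gene Ccr3 at 40.3 and 4.77 CPM and Neb, which encodes the muscle protein nebulin, at 56.5 and 8.63 CPM. Cep112 was found in 44 of 175 members and Ccr3 in 19. Neb was also at 32.4 CPM in WT members and 4.62 CPM in WT Foxp3-negative cells, while Ccr3 had 2 UMIs in WT members. In DKO-severe Foxp3-positive cells with the program, Cep112 was at 105 CPM, Ccr3 at 26.1 CPM and Neb at 55.0 CPM, so none of these genes was held by the members alone.

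The lowest ratios in that contrast belonged to neutrophil genes. Ngp, a neutrophil granule protein gene, was at 8.38 CPM in DKO-severe members and 1364 CPM in DKO-severe Foxp3-negative cells, and S100a8 at 215 and 5136 CPM. A minority of the 2916 Foxp3-negative cells held these UMIs, 213 for Ngp and 594 for S100a8, beside 12 and 46 of 175 members. The ratios thus describe those Foxp3-negative cells as much as the members, and the source of the UMIs was not tested. Granulocyte list UMIs summed to 618 CPM in DKO-severe members (258 CPM without the cell that held most of them) and 15380 CPM in Foxp3-negative cells, and 113 CPM in WT members. Il21, the helper cytokine of germinal centres, was at 9.42 CPM in members and 68.7 CPM in Foxp3-negative cells, and the CD40 ligand gene Cd40lg at 34.6 and 108 CPM.

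Set against each other, DKO-severe members were 2-fold or more higher than WT members in 412 of 6057 tested genes (6.80%) and lower in 183 (3.02%), with a median log2 ratio of 0.07 over all. Of the Treg identity list none of 16 tested genes was higher and 7 were lower, with a median of -0.43 without Foxp3. Lrrc32 was at 58.5 CPM in WT and 12.6 in DKO-severe members (log2 ratio -2.22, -2.99 to -1.48), Ikzf4 at 117 and 33.0, Gpr83 at 47.3 and 13.6, Il2ra at 507 and 209 (log2 ratio -1.28) and Nrp1 at 258 and 101. Foxp3 itself, fixed at 1 UMI or more by the rule, was at 228 and 138 CPM, in cells of unlike depth.

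Other genes of that list were at like levels in both mice. Ikzf2 was at 1903 CPM in WT and 1844 in DKO-severe members (log2 ratio -0.05), Ctla4 at 425 and 527, Izumo1r at 460 and 488, Tnfrsf18 at 250 and 302, and Tnfrsf4, which encodes the costimulatory receptor OX40, at 277 and 437. The sign of the median of the list without Foxp3 was not stable: it was 0.17 at 3800 UMIs, 0.03 without members that carried transcripts of other lineages and 0.02 without those that carried Cntn5, Ntng1 and Ralyl, so the direction is given for single genes only. At 3800 UMIs, the log2 ratio between the mice was -1.19 for Il2ra, -1.37 for Lrrc32 and -1.31 for Gpr83, while Ikzf4 at -0.58 and Nrp1 at -0.96 no longer passed 2-fold.

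**Figure D4:**
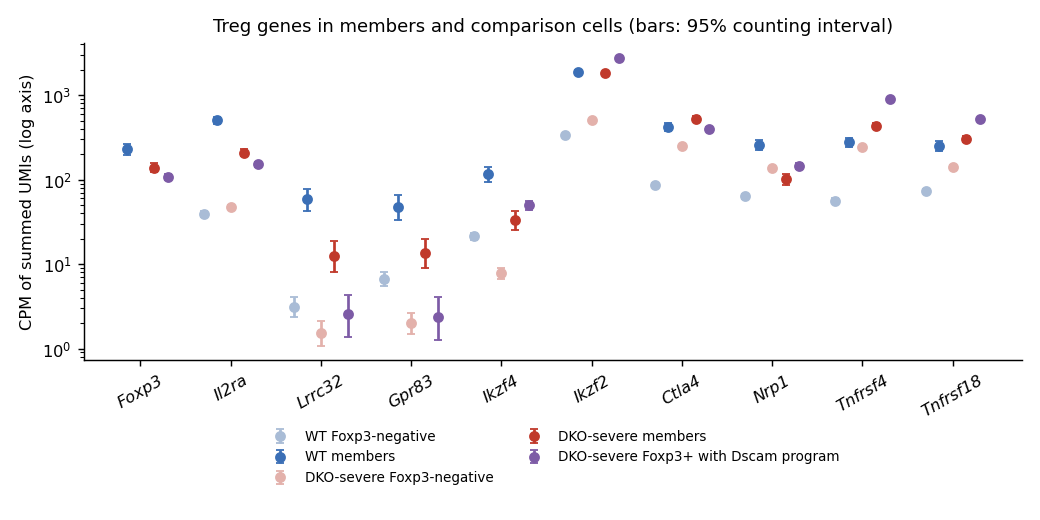
CPM of summed UMIs on a log axis (points, with 95% counting intervals) for 10 Treg genes in 5 groups of cells; Foxp3 is 0 by the gate in Foxp3-negative cells and is not drawn there. Il2ra, Lrrc32, Gpr83, Ikzf4 and Nrp1 are lower in DKO-severe than in WT members, while Ikzf2 is at 1844 and 1903 CPM.

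Genes of the resting state were lower in DKO-severe members. Of 16 tested genes 7 were 2-fold or more lower and none higher (median log2 ratio -0.86, but -0.43 with 2 or more Foxp3 UMIs and -0.40 among members with 2 or more of the 4 Treg markers). Foxp1, a factor that keeps T cells quiescent, was at 1456 CPM in WT and 374 in DKO-severe members (log2 ratio -1.96), and Bach2, a repressor that limits effector differentiation, at 826 and 230 CPM (log2 ratio -1.84). The lymph node homing receptor gene Ccr7 was at 127 and 38.7 CPM and Lef1, a Wnt pathway factor of naive T cells, at 588 and 218 CPM. Ly6c1 and Igfbp4 had ratios of -2.52 and -2.23, the former among the lowest of all.

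The IL-2 and STAT5 list moved the same way, with 5 of 12 tested genes 2-fold or more lower, none higher and a median of -0.87. That median was -0.25 with 2 or more Foxp3 UMIs, -0.23 with 2 or more of the 4 markers and -0.38 at 3800 UMIs. Cish was at 84.7 CPM in WT and 38.2 in DKO-severe members, Socs1, a brake on cytokine signalling, at 113 and 36.1, and Stat5b at 293 and 124. The receptor chains Il2rb (211 and 226 CPM) and Il2rg (238 and 168 CPM) and the kinase gene Jak1 (450 and 411 CPM) stayed within 2-fold.

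Higher in DKO-severe members were inhibitory receptors and effector genes. Of the suppressive molecules 7 of 13 were 2-fold or more higher and none lower, with a median of 1.30 (0.34 with 2 or more of the 4 markers). Lag3, an inhibitory receptor that binds MHC class II, was at 6.23 CPM in WT and 105 in DKO-severe members (log2 ratio 4.07, 2.82 to 5.71) and was found in 5 of 136 and 78 of 175 cells. Gzmb, which encodes granzyme B, was at 7.47 and 98.9 CPM, Tigit at 8.72 and 36.1, Pdcd1, which encodes PD-1, at 27.4 and 85.3, and Fgl2 at 12.5 and 75.4. At 3800 UMIs, 1.19% of WT members and 24.8% of DKO-severe members had a Lag3 UMI. In Foxp3-negative cells at that depth the shares were 1.33% and 26.5% for Lag3 and 3.09% and 20.8% for Pdcd1. The higher levels of these 2 genes were thus not particular to members.

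Of the effector Treg list 9 of 18 were higher and Hopx was lower, with a median of 0.94 (0.28 with 2 or more of the 4 markers). The calcium-binding genes S100a4 (149 and 1601 CPM, log2 ratio 3.42) and S100a6 (215 and 2585 CPM, log2 ratio 3.58) and the galectin gene Lgals1 (275 and 1286 CPM) were among them. The inflammatory chemokine receptor gene Ccr2 was at 31.1 and 155 CPM, Icos at 218 and 486, Maf at 122 and 398, and Tnfrsf9, which encodes 4-1BB, at 51.1 and 159. Il10, with 4 UMIs over WT and 32 over DKO-severe members, did not reach the filter. Foxp3-negative cells also differed between the mice. At 3800 UMIs, 22.4% of them in WT and 55.5% in DKO-severe had an Icos UMI, and 13.9% and 37.0% an S100a4 UMI.

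The list of follicular helper and follicular regulatory (Tfh and Tfr) genes, many of which the study named on samples of its own and which is no independent evidence of direction, had 5 of 15 tested genes 2-fold or more higher and none lower (median 0.77, and 0.29 with 2 or more of the 4 markers). These were Pdcd1, Icos, Maf, Tox2 (19.9 and 93.2 CPM) and Cd200 (48.6 and 99.5 CPM). Bcl6, the factor that directs follicular T cells, was at 49.8 and 63.9 CPM and the follicle homing receptor gene Cxcr5 at 29.9 and 36.6 CPM, both within 2-fold. Il21 was in 1 of 136 WT and 9 of 175 DKO-severe members, and at 3800 UMIs in 1 of 84 and 1 of 117.

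Cell cycle genes were higher in DKO-severe members in 9 of 11 tested cases, with Mki67 at 54.8 CPM in WT and 142 in DKO-severe members. In WT, 1 cell held 88.6% of the Mki67 UMIs. Mki67 UMIs were present in 6 WT and 35 DKO-severe members. At 3800 UMIs they were in 2.38% of WT and 13.7% of DKO-severe members, and in 2.30% and 7.97% of Foxp3-negative cells. Leaving out the cell with most UMIs of each gene put the median log2 ratio of the list at 3.19 in place of 1.37, while among members with 2 or more of the 4 Treg markers it was -0.42.

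**Figure D5:**
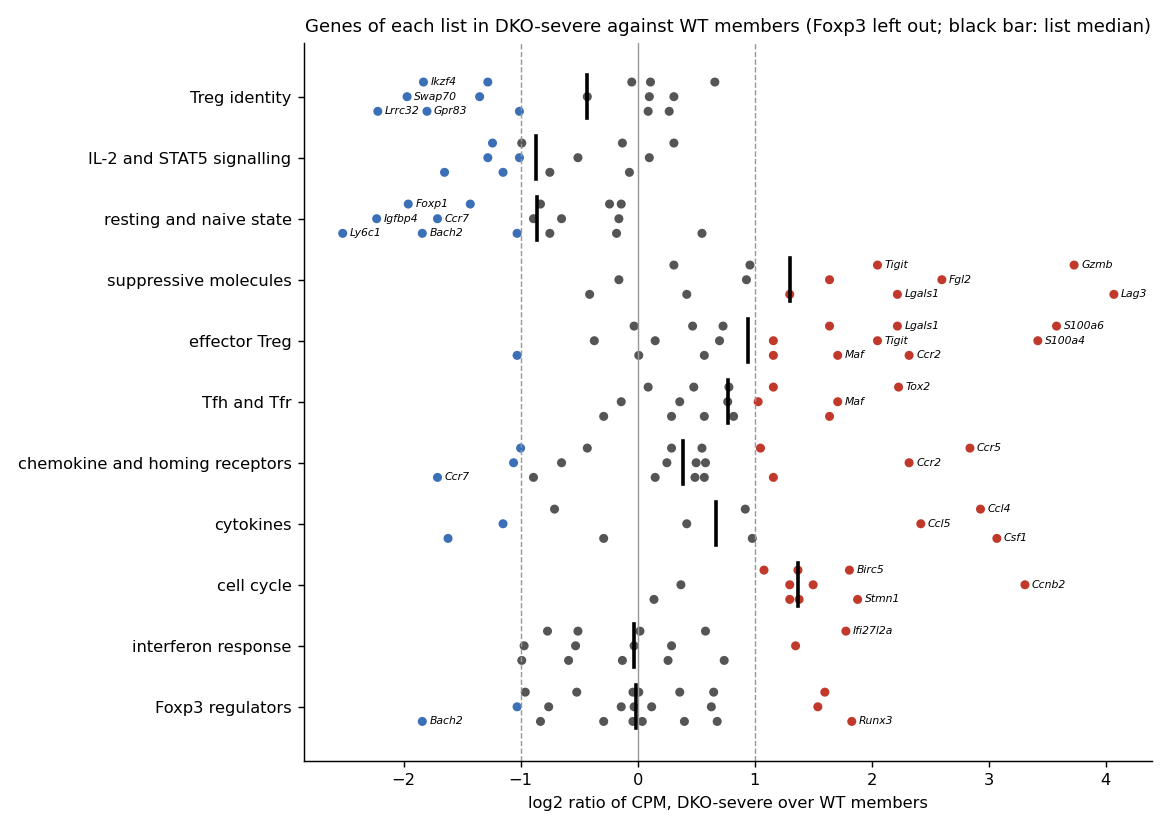
Log2 ratio of CPM, DKO-severe over WT members (horizontal axis), for each tested gene of 11 lists (vertical axis), in red or blue at 2-fold or more and grey otherwise, with black bars at list medians and dashed lines at 2-fold; Foxp3 is left out. The IL-2 and STAT5 and resting lists have medians of -0.87 and -0.86, and suppressive molecules one of 1.30.

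The other lists were mixed. Of the Foxp3 regulators 3 of 22 were higher, among them Runx3 (18.7 and 66.5 CPM) and Hif1a (166 and 502 CPM), and 2 were lower. Of the DNA methylation list none of 7 passed 2-fold. Tet1 had 14 UMIs in WT members and 2 in DKO-severe members, too few for the filter. Of the interferon list 2 of 15 were higher, Ifi27l2a (751 and 2581 CPM) and Ly6a (141 and 360 CPM), and none was lower. Among T cell receptor activation genes Nr4a2 was higher, and Cd6 (182 and 62.8 CPM) and Cd83 (64.8 and 13.6 CPM) were lower. In the TNF receptor family only Tnfrsf9 of 10 tested genes passed 2-fold. Of the chemokine and homing receptors 4 of 18 were higher and 3 lower, and of the cytokines 3 of 10 were higher, with Ccl5 at 98.4 and 525 CPM, and 2 lower.

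Ranked over all tested genes, the highest ratios of DKO-severe to WT members belonged to Ralyl, an RNA-binding protein gene (9.96 and 338 CPM, log2 ratio 5.08, 4.10 to 6.30), Hip1 (4.98 and 155 CPM), the axon guidance gene Ntng1 (1.25 and 110 CPM), B3galt1 (8.72 and 201 CPM), Flrt2, Spon1 and Sntg2. Those with the lowest were the transporter gene Abcg3 (61.0 and 9.95 CPM), Ly6c1, the laminin receptor gene Itga6 (159 and 30.9 CPM), Nedd4l (89.7 and 17.8 CPM) and Tgfbr3, a TGF-β co-receptor gene (52.3 and 10.5 CPM). The MHC class II genes H2-Ab1 (1.25 and 75.4 CPM) and H2-Aa (2.49 and 68.1 CPM) were among the highest. Beside them, the B cell list summed to 72.2 CPM in WT and 488 in DKO-severe members, and the B cell gene Cd79a was at 2.49 and 20.4 CPM. Their part in the ratios was not tested.

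Other lineages left traces in single cells. Of the haemoglobin gene Hbb-bs, 1 DKO-severe member held 2193 of 2425 UMIs. Of Lyz2, a myeloid gene, 1 WT member held 168 of 170 UMIs, and of the plasma cell gene Jchain, 1 WT member held 359 of 366. Members with 3 or more UMIs over defining genes of B, plasma, myeloid, granulocyte and erythroid cells numbered 13 in WT and 61 in DKO-severe. Without them, 216 genes were 2-fold or more higher in DKO-severe than in WT members and 110 lower, in place of 412 and 183, with Lag3 at a log2 ratio of 4.07 and Lrrc32 at -1.74. Fewer UMIs were summed there, so fewer genes could reach the filter of 60 UMIs. The counts thus do not rest on the same number of tested genes.

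Marker support split the members within each mouse. The 39 DKO-severe members with 2 or more of the 4 markers, which set Il2ra, Ikzf4, Lrrc32 and Gpr83 high, had Bcl2 at 1031 CPM (interval 935 to 1134), Foxp1 at 706 CPM and Bach2 at 478 CPM. In the 136 DKO-severe members with fewer markers, Bcl2 was at 276, Foxp1 at 282 and Bach2 at 162 CPM. In the opposite direction, S100a6 was at 912 CPM in the former and 3045 in the latter, Ccr2 at 58.2 and 182, Gzmb at 24.3 and 120, and Itgb1 at 72.8 and 280. Ctla4 (553 and 519 CPM) and Ikzf2 (1589 and 1914 CPM) were at like levels.

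In WT members the same split gave Foxp1 at 1527 CPM in the 63 cells with 2 or more markers and 1374 CPM in the 73 with fewer, and Bcl2 at 776 and 701 CPM. S100a4 was at 37.2 and 279 CPM (635 and 1867 in DKO-severe) and Ccr2 at 4.65 and 61.7 CPM, while S100a6 was at like levels of 221 and 209 CPM. Between the mice, 2422 genes passed the filter in the 39 and 63 cells with 2 or more markers, and 53 of them were 2-fold or more higher in DKO-severe (2.19%) and 32 lower (1.32%). In the cells with fewer markers 564 of 4876 were higher (11.6%) and 170 lower (3.49%). In the cells with 2 or more markers, Lag3 (log2 ratio 3.43), S100a4 (4.09), Maf (1.28), Foxp1 (-1.11) and Nrp1 (-1.61) stayed past 2-fold. Ccr7 (-0.47) and Pdcd1 (0.24) did not, and neither did Il2ra (-0.23), whose UMIs helped to choose these cells.

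A set of DKO-severe members carried neuronal transcripts other than those of the rule. Cntn5, which encodes the neuronal contactin 5 (chr9:9660891-10904775, - strand), was found in 29 of 175 DKO-severe members and 7 of 136 WT members, at 853 and 9.96 CPM, with 460 of its 1629 UMIs in 1 DKO-severe cell. Taken with Ntng1 and Ralyl, 44 DKO-severe members (25.1%, 18.9 to 32.2) had 3 or more UMIs and no WT member did, which, with 3 cells as the limit for a count of 0, allows a share of up to 2.21%. Among DKO-severe Foxp3-negative cells 1252 of 2916 did (42.9%). At 3800 UMIs the share was 14.5% (8.70 to 22.2) of DKO-severe members beside 42.4% of their Foxp3-negative cells, with 0 of 84 WT members.

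These 44 members and the other 131 were compared after the values had been seen, at median depths of 11891 and 9319 UMIs. Il2ra was at 149 CPM in the 44 and 237 CPM in the 131. Il21 UMIs were found in 9 of the 44 cells and in none of the 131, which by the same limit allows up to 2.29% of them. Cd200 was at 161 and 70.7 CPM, Maf at 528 and 338, Slamf6 at 415 and 214, and B3galt1 at 469 and 75.3. Lower in the 44 were S100a6 (1470 and 3107 CPM), Ccr2 (62.3 and 199), Gzmb (8.20 and 141) and Ccr3 (1.64 and 58.4). Ctla4 and Ikzf2 UMIs were found in 42 and 41 of the 44 and in 110 and 118 of the 131, while among Foxp3-negative cells with 3 or more Cntn5, Ntng1 and Ralyl UMIs at a median of 7862 UMIs, 85.0% had Ctla4 and 79.1% Ikzf2. The higher share with Il21 was not particular to members. It was found in 650 of these 1252 Foxp3-negative cells and 23 of the 1664 others. Among DKO-severe Foxp3-positive cells with the Dscam program, 24 of 92 with 3 or more such UMIs had Il21, and 4 of 255 others.

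The 3 genes were not unique to the members, since 92 of 347 DKO-severe Foxp3-positive cells with the Dscam program had 3 or more UMIs of them. Leaving the 44 out put the median log2 ratio of the Tfh and Tfr list between the mice at 0.43 in place of 0.77 and that of the suppressive molecules at 0.88 in place of 1.30.

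Compared with the 347 DKO-severe Foxp3-positive cells that had the program, few tested genes differed. Of 6459 tested genes 0.650% were 2-fold or more higher in members and 1.08% lower. Dscam, Penk and Hapln1 were set by the rule at 6.28, 29.3 and 7.85 CPM in members and 193, 1513 and 140 CPM in the others. Sorcs1, a neuronal sorting receptor gene that the rule did not use, was at 2.62 and 105 CPM (log2 ratio -5.33, -6.96 to -4.10), found in 2 of 175 and 47 of 347 cells.

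Resting genes were higher in the members than in program cells, with 4 of 14 tested genes past 2-fold, none lower and a median of 0.57 beside -0.03 over all tested genes. Bcl2, a survival gene, was at 439 and 175 CPM, Klf2, which drives egress receptors, at 410 and 203, and its target S1pr1 at 136 and 65.8. The long noncoding RNA Gm2682 was at 839 and 263 CPM (log2 ratio 1.67, 1.57 to 1.78). Lrrc32 (12.6 and 2.54 CPM) and Gpr83 (13.6 and 2.36 CPM) were below the filter.

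Of the TNF receptor family 2 of 10 tested genes were 2-fold or more lower in the members, 1 was higher (Tnfrsf26, log2 ratio 1.10) and 7 lay between, with a median of -0.14. Tnfrsf4 was at 437 and 913 CPM (log2 ratio -1.06) and Tnfrsf9 at 159 and 397 CPM (log2 ratio -1.33), and the integrin gene Itgae at 31.4 and 72.6 CPM. Of the Treg identity list 2 of 12 tested genes were lower and none higher. Ikzf2 was at 1844 and 2782 CPM, Il2ra at 209 and 152 (log2 ratio 0.46, but -0.30 at 3800 UMIs) and Ctla4 at 527 and 401. The effector, Tfh and cell cycle lists had medians of 0.05, 0.01 and -0.20.

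Across the limit, genes changed at different sums. Ikzf2 was at 1387 CPM (1322 to 1454) in the 117 DKO-severe members with a sum of 0, 2694 CPM in the 58 with 1 or 2, 2277 CPM in the 40 cells with 3 or 4 and 2839 CPM in the 307 with 5 or more. Bcl2 went from 545 through 243 and 149 to 178 CPM. For both, cells just inside the limit lay nearer to those outside it than to those at 0. Tnfrsf4 went from 427 through 455 and 695 to 937 CPM, and Sorcs1 from 0.805 through 5.99 and 1.79 to 117 CPM.

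Usage of T cell receptor beta V segments was narrower in DKO-severe members. A single leading Trbv segment could be read in 29 of 136 WT and 58 of 175 DKO-severe members. An effective segment number, obtained by summing the squared share of each segment and inverting, came to 10.9 for WT and 4.96 for DKO-severe members, beside 12.7 and 6.64 in the Foxp3-negative cells. Trbv12-2 was read in 21 of 58 DKO-severe members (36.2%, 24.0 to 49.9), 77 of 168 program cells (45.8%) and 190 of 822 Foxp3-negative cells (23.1%), and in 2 of 29 WT members (6.90%, 0.846 to 22.8). Trbv19 was read in 7 of 18 members with 3 or more Cntn5, Ntng1 and Ralyl UMIs and in 1 of 40 of the others.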

How the data were processed

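The deposited values were raw UMI counts, made by the authors with Cell Ranger 7.1.0 on mm10, per the labels and submitters' processing notes, as 1 gene by cell matrix per genotype with hashtag counts beside the genes. Sample groups came from the labels. Filters of at least 500 genes and no more than 10% mitochondrial UMIs retained cells (7007 of 7189 WT and 6765 of 7161 DKO-severe barcodes), and the members were gated on raw UMIs. The members and gene lists were chosen with earlier results of these data known. UMIs were summed per group and divided by the group's total (802823 UMIs in WT and 1910165 in DKO-severe members) to give CPM. Counting intervals were exact Poisson (levels), exact conditional binomial (ratios) and Clopper-Pearson (shares) at 95%. The limit given for a share of 0 was 3 cells of the total. No test between genotypes was made, since each was 1 mouse. Shares were also taken at 3800 UMIs per cell. Beside genes of the lists, the text names from the 12 highest and 12 lowest ratios between genotypes and the 8 highest and 8 lowest in the other comparisons, among genes with a mean of 20 CPM or more and 60 or more UMIs where no cell held over 20% of the UMIs of the higher group. Immunoglobulin, haemoglobin, T cell receptor, mitochondrial, ribosomal and sex-linked marker genes were not ranked.

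Doublets were not removed. The automatic threshold of Scrublet (scanpy 1.11.5) marked 0 cells and so did not work, and leaving out the highest 6% of scores, which held 5 WT and 13 DKO-severe members, was an alternative. Gene coordinates came from GENCODE M21, matched by Ensembl ID. Calculations used Python 3.11.15, numpy 2.4.6, scipy 1.17.1 and pandas 2.3.3, and were tested on simulated data.
Alternatives were other depths, gates, doublet and lineage filters, scalings, a pseudocount of 5 CPM and a minimum of 50 CPM. Tests across mice were left out for lack of replicates. One gene of the resting list is not reported here by name.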

Additional observations from a re-analysis of the deposited data

Results flagged for a closer look

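For Nrp1 and Socs1, members and Foxp3-negative cells stood in opposite order in the WT and DKO-severe mouse. The log2 ratio of members to Foxp3-negative cells was 2.02 (1.80 to 2.24) in WT and -0.44 (-0.66 to -0.23) in DKO-severe for Nrp1, and 1.66 and -0.44 for Socs1. For Nrp1 in DKO-severe it was -0.25 (-0.67 to 0.14) at 3800 UMIs and 0.07 (-0.30 to 0.41) in a second draw, where the order was not opposite. In either group of members no cell held over 7.25% of the UMIs of these genes. The difference between the mice was not tested.

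Genes of other lineages also had ratios of opposite sign, mostly through single cells. For Jchain the log2 ratio was 0.49 in WT and -5.52 in DKO-severe, with 98.1% of the UMIs of WT members in 1 cell. For Lyz2 it was 1.88 and -1.28, with 98.8% in 1 WT cell, and for Tyrobp 0.93 and -1.18, with 93.1% in 1 WT cell. For the haemoglobin genes Hbb-bs, Hbb-bt and Hba-a1 it was -4.44, -3.48 and -3.67 in WT and 1.10, 0.58 and 0.99 in DKO-severe, with 90.4%, 86.5% and 90.0% of the UMIs of DKO-severe members in 1 cell. None of these differences was tested.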

How the results depend on the processing

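With 1 mouse per genotype no value has a replicate check, and depth limits the shares and the genes that reach the filter. No paired analysis was possible because each genotype was 1 sample and no test was run. Of 544 values for single genes under alternatives 375 stayed inside the counting interval of the main value, 164 fell outside it and 5 changed sign. Of 271 other values 204 stayed, 66 moved and 1 changed sign. Among these, gene counts were judged by a fixed fold between settings, and list medians by the medians of their genes' interval bounds. The cause of these changes was not tested. A second draw, leaving out cells with Cntn5, Ntng1 and Ralyl, leaving out the top cell of each gene and dropping the program limit were chosen after seeing the data.

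Between genotypes, the 412 higher genes became 137 at 3800 UMIs, 149 in a second draw, 257 with 2 or more Foxp3 UMIs, 216 without other-lineage cells, 53 with 2 or more markers and 186 at 50 CPM or more. The 183 lower genes became 52, 75, 75, 110, 32 and 103 in that order, and 281 with no program limit. The number of tested genes differs between settings, as with 2 or more markers, where 2422 passed the filter in place of 6057. These counts are therefore not shares of the same total. List medians (log2) moved as follows. Treg identity without Foxp3 went from -0.43 to 0.17 at 3800 UMIs, 0.09 at 50 CPM or more and 0.06 with no limit. Resting genes went from -0.86 to -0.55 at 3800 UMIs, -0.43 with 2 or more Foxp3 UMIs, -0.54 with a Cd4 UMI, -0.40 with 2 or more markers and -1.44 with no limit. With 2 or more markers, suppressive molecules were at 0.34, effector genes at 0.28, Tfh and Tfr genes at 0.29 and IL-2 and STAT5 genes at -0.23 (-0.25 with 2 or more Foxp3 UMIs). Without Cntn5, Ntng1 and Ralyl cells, suppressive molecules were at 0.88 and Tfh and Tfr genes at 0.43 (0.45 as a mean of cell CPM). Cell cycle genes went from 1.37 to 3.52 with 2 or more Foxp3 UMIs, 0.50 with a Cd4 UMI, 0.71 without other-lineage cells, 2.25 as a mean of cell CPM and 3.19 without top cells, and changed sign to -0.42 with 2 or more markers, as Mki67 did (-0.29). Cntn5 and Ralyl were at -0.53 and -0.89 without the cells that carry them, which the choice of those cells fixes.

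In WT members against Foxp3-negative cells, 189 higher and 66 lower genes became 284 and 134 at 3800 UMIs, 296 and 119 in a second draw, and 466 and 299 with 2 or more Foxp3 UMIs. In DKO-severe, 78 higher genes became 120 at 3800 UMIs and 148 with 2 or more Foxp3 UMIs. The median of Treg identity without Foxp3 went from 0.84 to 0.63 with 2 or more Foxp3 UMIs, 0.97 without high doublet scores, 0.95 without other-lineage cells and 1.01 as a mean of cell CPM, that of resting genes to -0.09 without Cntn5, Ntng1 and Ralyl cells, and Nrp1 changed sign to 0.07 in a second draw. Against program cells, 42 higher genes became 66 with 2 or more Foxp3 UMIs, 75 without other-lineage cells, 76 as a mean of cell CPM and 27 with a pseudocount, and 70 lower genes became 173, 128 and 106 under the first 3 of these. The resting median was 0.81 in a second draw, and Il2ra changed sign to -0.30 at 3800 UMIs.

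The share of members went from 4.18% to 2.91% at 3800 UMIs, 2.99% in a second draw, 1.01% with 2 or more Foxp3 UMIs and 3.41% of cells with a Cd4 UMI in WT, and to 2.84%, 2.95%, 1.48% and, at a program sum of 0, 2.80% in DKO-severe (3.81% in WT). Members with 2 or more markers were 29.8% in WT and 13.7% in DKO-severe at 3800 UMIs, and 12.3% in DKO-severe in a second draw.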
